A study of Danio rerio with 6 samples.

Results

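The comparison of Tbx5a knockdown with its control in zebrafish embryos at 24 hpf (hours post fertilization) was described across mature miRNAs. Embryos of the wild-type AB strain received 1.5 ng of morpholino at the 1-cell stage. The MO-Tbx5a group received a morpholino against tbx5a, and the MO-Ct group received a control morpholino. Each group had 2 small RNA libraries, and each library came from a separate batch of 50 whole embryos. A mature miRNA entered the comparison when 2 or more of the 4 libraries had 10 normalized reads or more of it, which held for 210 of the 230 mature miRNAs in the table. The other 20 reached at most 22.6 normalized reads in any of the 4 libraries. A morpholino lowers translation of its target for a limited time and leaves the gene intact, and Tbx5a protein is not seen by small RNA sequencing, so the extent of the knockdown was not measured here. Pools of whole embryos mix all tissues, and the heart and the fin buds are a small part of them.

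Tbx5a is a T-box transcription factor expressed in the cardiac field and in the pectoral fin buds, and loss of its function in zebrafish disturbs heart looping and prevents fin outgrowth. Dominant loss of the human gene TBX5 causes Holt-Oram syndrome, which affects the heart and the upper limb. miRNAs are short RNAs cut from hairpin precursors that lower the stability and translation of mRNAs they pair with, and many of them are made mainly in 1 tissue, so that their level in a whole embryo follows both how much of that tissue there is and how active the miRNA gene is in it. Members of a miRNA family have related sequences and are usually made from separate gene copies.

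The values are normalized reads, the reads of a miRNA divided by a size factor of its library, and where the libraries of a group are given, the value of batch 1 stands before that of batch 2. SE is the standard error of a log2 fold change, which is MO-Tbx5a over MO-Ct throughout. It rests mostly on the spread that the fitted model pooled over miRNAs of like level. It is therefore not a measure of the spread between the batches of that miRNA alone. Reads were not in the table and were estimated from the smallest step between the values of a library. By this estimate MO-Tbx5a had 1699876 and 3148888 reads on mature miRNAs, and MO-Ct had 2396575 and 2907439. The paper lists fewer miRNA reads for each of these libraries, and the reason was not tested. At least 1 estimated read was found for 227 to 230 of the 230 mature miRNAs in each library, and a count of 0 allows up to 3 reads, or 2.69 to 5.61 normalized reads, counting error only. The miR-430 family, which clears maternal mRNAs in the early zebrafish embryo, took 58.7% and 53.3% of all normalized reads in MO-Tbx5a and 51.0% and 46.0% in MO-Ct. These shares did not overlap between the groups, and their part in the results that follow was not tested. All 14 lists of miRNAs grouped by tissue of expression or by role had members among the 210, with defining miRNAs of muscle, neurons, epidermis, endothelium and pancreas all present. The liver miRNA miR-122 was among the 20 left out, at 9.36 and 4.48 normalized reads in MO-Tbx5a and 9.31 and 1.84 in MO-Ct.

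The test, limma with Benjamini-Hochberg adjusted p-values and a limit of 0.05, called 16 of the 210 miRNAs (7.62%). In MO-Tbx5a embryos 7 of them were higher (3.33%) and 9 were lower (4.29%), and 44 miRNAs had an unadjusted p under 0.05. Most miRNAs moved little: 173 of the 210 (82.4%) had a log2 fold change within 0.5 of 0, 8 differed by more than 2-fold, and the median over all 210 was -0.01. Calls came at every level. Above a mean of 1000 normalized reads 1 of 73 miRNAs was higher and 5 were lower, between 100 and 1000 reads 2 of 76 were higher and 4 were lower, and up to 100 reads 4 of 61 were higher and 0 were lower. The root mean square log2 difference between batches of a group had a median of 0.18, 0.23 and 0.48 at these levels, so the spread between batches was widest for scarce miRNAs. With 2 libraries against 2, an exact two-sided permutation test of a single miRNA cannot give a p below 0.333, and each adjusted p therefore rests on the spread that limma pooled over miRNAs of like level. The number of calls was 0 when libraries were scaled to their totals (38 at an unadjusted p under 0.05), 1 without the trend of variance on level, 5 without MO-Tbx5a batch 1, and 0 without either MO-Ct library (25 without MO-Ct batch 1 and 24 without MO-Ct batch 2 at an unadjusted p under 0.05).

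**Figure D1:**
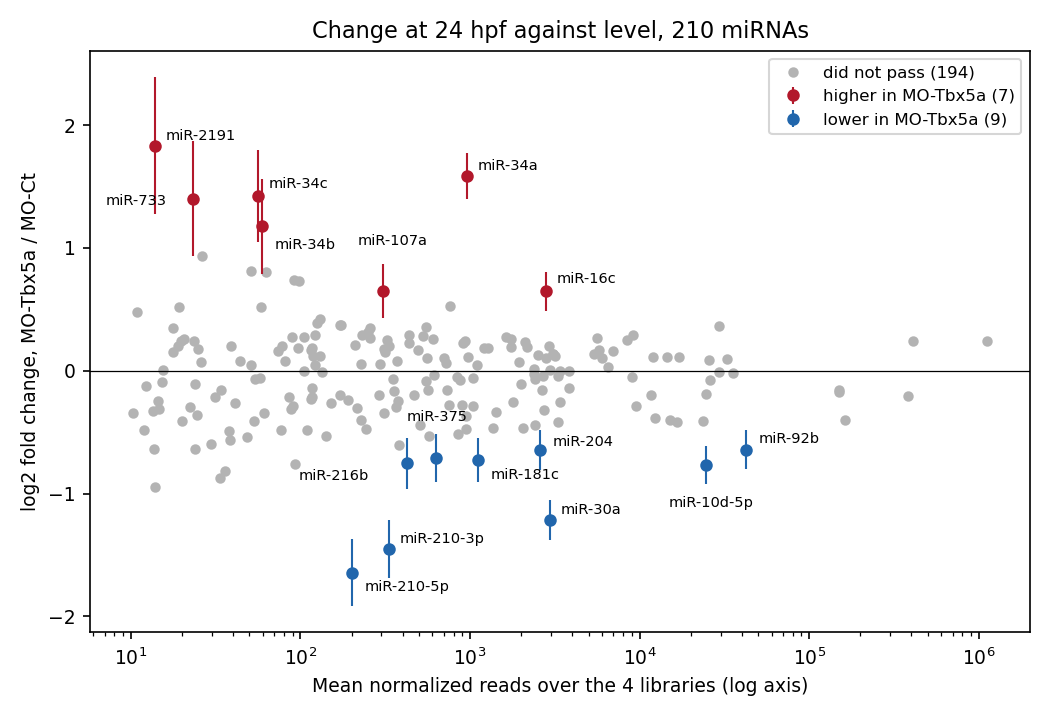
The log2 fold change of MO-Tbx5a over MO-Ct (vertical axis) against the mean normalized reads over the 4 libraries (horizontal axis, log scale) for 210 miRNAs at 24 hpf. Colored points are the 7 miRNAs that were higher and the 9 that were lower in MO-Tbx5a. Bars are 1 standard error, mostly from the spread pooled over miRNAs of like level. The 4 calls at the lowest levels were all higher in MO-Tbx5a. Among them miR-2191 passed the filter only through MO-Tbx5a, and miR-733 would not have passed on MO-Ct alone.

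For 110 of the 210 miRNAs (52.4%) the groups did not overlap. In 48 cases (22.9%) both MO-Tbx5a libraries were higher than both MO-Ct libraries, and in 62 (29.5%) both were lower. This count needs no pooled spread but does depend on scaling, with 43 higher and 59 lower when libraries were scaled to their totals, and 58 higher and 55 lower with median-ratio size factors. Of the 16 called miRNAs, 15 did not overlap between the groups, and miR-34b did.

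The rise with the smallest adjusted p was that of miR-34a, and the falls of the largest size were those of both arms of miR-210. Both miRNAs are known for stress responses, but they moved in opposite directions, and a link to stress was not tested. miR-34a, which p53 induces after DNA damage in mammals, had 1566 and 1295 normalized reads in MO-Tbx5a, against 379 and 591 in MO-Ct. Both MO-Tbx5a libraries lay above both MO-Ct libraries in each of 3 scalings (deposited size factors, library totals and median-ratio size factors). With the deposited size factors the log2 fold change was 1.59 (SE 0.19, Benjamini-Hochberg adjusted p = 2.29e-13 by limma). With library totals the Benjamini-Hochberg adjusted p of miR-34a was 0.0987 by limma, and it did not pass. As a share of the reads of its family, miR-34a took 84.3% and 95.3% in MO-Tbx5a and 86.6% and 92.4% in MO-Ct. These shares overlapped between the groups, and the summed reads of the family mostly restate miR-34a. The summed reads of miR-34a, miR-34b and miR-34c were 1858 and 1359 in MO-Tbx5a and 437 and 639 in MO-Ct.

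miR-34b and miR-34c are neighbours in the genome and are read from a shared transcript in mammals. miR-34c had 135 and 37.6 normalized reads in MO-Tbx5a and 31.9 and 20.2 in MO-Ct, and miR-34b had 157 and 26.0 in MO-Tbx5a and 26.6 and 28.5 in MO-Ct. In both cases MO-Tbx5a batch 1 stood well above the other 3 libraries. Both were called, with adjusted p of 0.00411 for miR-34c and 0.0371 for miR-34b by limma with the Benjamini-Hochberg method, but without MO-Tbx5a batch 1 their log2 fold changes were 0.53 and -0.08. miR-34a did not follow that library, and without it the log2 fold change was 1.45.

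miR-210, the miRNA most tied to low oxygen in mammals, was lower on both arms of its hairpin. miR-210-3p had 211 and 126 normalized reads in MO-Tbx5a, against 718 and 283 in MO-Ct, and miR-210-5p had 114 and 60.9, against 487 and 144. The MO-Tbx5a libraries lay below both MO-Ct libraries for each arm, and batch 1 was above batch 2 in each group. The fitted log2 changes were -1.45 for the 3p arm (SE 0.23, adjusted p = 1.34e-07) and -1.64 for the 5p arm (SE 0.27, adjusted p = 2.41e-07), by limma with the Benjamini-Hochberg method. Without MO-Ct batch 1 they were -0.78 and -0.77, and without MO-Ct batch 2 they were -2.12 and -2.52. The 5p arm took 35.1% and 32.5% of the reads of the hairpin in MO-Tbx5a and 40.4% and 33.8% in MO-Ct, so both arms were lower by a like amount.

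**Figure D2:**
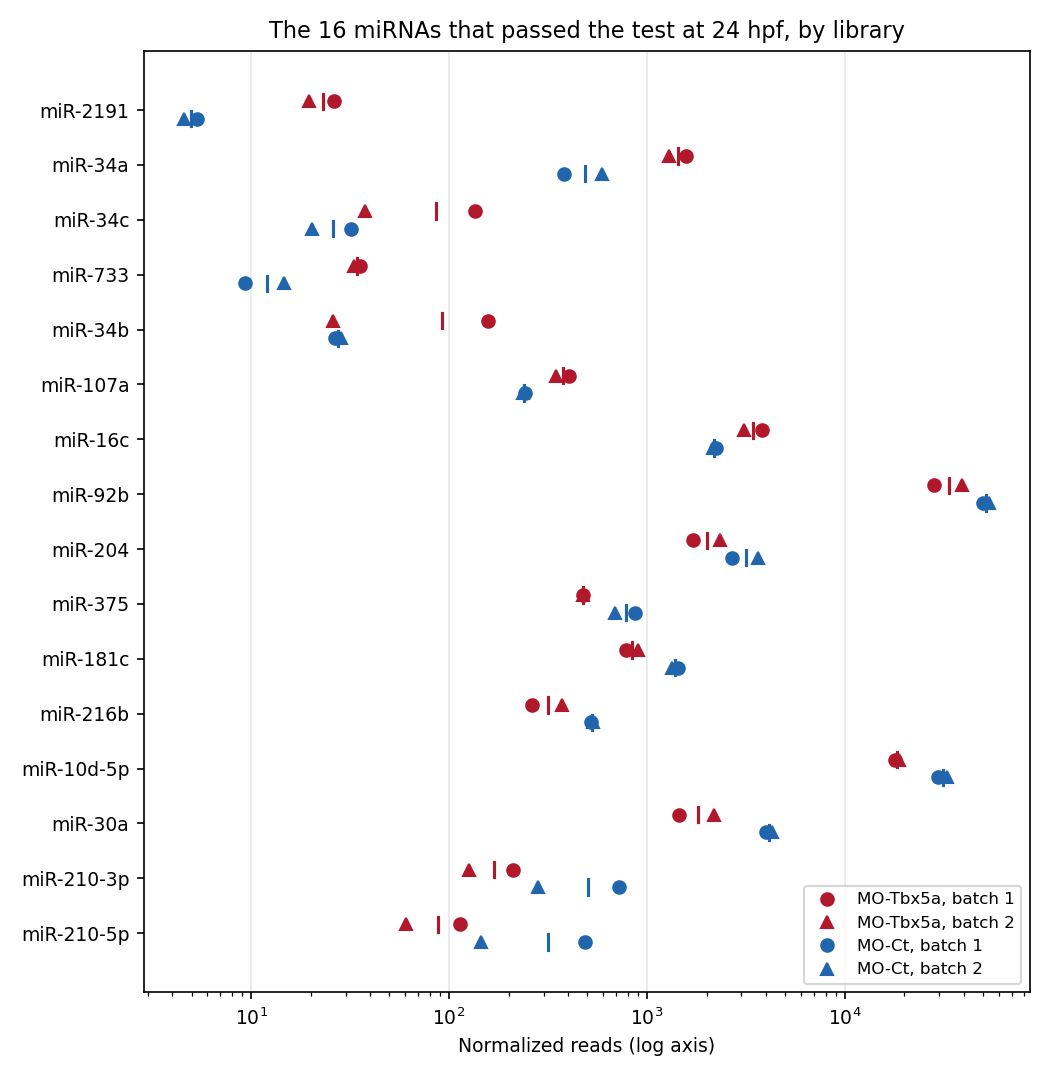
Normalized reads (log axis) of the 16 called miRNAs in each library at 24 hpf, with MO-Tbx5a above MO-Ct in each row, circles for batch 1, triangles for batch 2 and a bar at the mean of each group. The MO-Tbx5a libraries stand apart from the MO-Ct libraries in every row but that of miR-34b, and the arms of miR-210 have the widest gap between MO-Ct batches.

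Within the miR-30 family the change was uneven. miR-30a had 1452 and 2189 normalized reads in MO-Tbx5a, against 3993 and 4292 in MO-Ct, a log2 fold change of -1.21 (SE 0.16, Benjamini-Hochberg adjusted p = 1.36e-10 by limma). miR-30d had 12884 and 12952 in MO-Tbx5a, against 17002 and 17199 in MO-Ct, which was -0.40 on the log2 scale and did not pass (Benjamini-Hochberg adjusted p = 0.0681 by limma). The most abundant member, miR-30e-5p, had 37418 and 33475 in MO-Tbx5a and 36934 and 34916 in MO-Ct, and its groups overlapped. A share within a family does not depend on how the libraries were scaled. miR-30a made up 2.33% and 3.83% of the reads of miR-30a, b, c, d and e-5p in MO-Tbx5a, against 5.71% and 6.36% in MO-Ct. Among the other 4 members, miR-30d took 21.2% and 23.6% in MO-Tbx5a, against 25.8% and 27.2% in MO-Ct. Neither pair of shares overlapped. In the genome, mir-30d and mir-30b lie close together, and miR-30b had a log2 fold change of -0.29 (Benjamini-Hochberg adjusted p = 0.419 by limma).

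The miR-10 family, which represses hox genes in zebrafish, held some of the most abundant miRNAs of the embryo after miR-430. The genes of miR-10a, miR-10b and miR-10c lie within the span of hox genes, and the coding gene nearest to mir-10d is lnpk. All 6 tested members had a log2 fold change below 0, and for 5 of them the MO-Tbx5a libraries lay below both MO-Ct libraries, in each of the 3 scalings, which held for 29.5% of all 210 miRNAs with the deposited size factors. The 6 include both arms of the miR-10a and miR-10d hairpins, so they are not 6 separate measurements. Only miR-10d-5p passed the test. It had 17879 and 18778 normalized reads in MO-Tbx5a, against 29477 and 32978 in MO-Ct, and its log2 change of -0.77 (SE 0.15, Benjamini-Hochberg adjusted p = 4.61e-05 by limma) stayed between -0.85 and -0.69 whichever library was left out. The other arm of that hairpin, miR-10d-3p, was far less abundant, at 58.0 and 80.6 normalized reads in MO-Tbx5a and 118 and 116 in MO-Ct. Its change of -0.76 (Benjamini-Hochberg adjusted p = 0.0809 by limma) was of the same size but did not pass.

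The much more abundant members differed less. miR-10b had 356079 and 355263 normalized reads in MO-Tbx5a and 420695 and 400572 in MO-Ct, a log2 fold change of -0.21 (Benjamini-Hochberg adjusted p = 0.564 by limma). miR-10a-5p had 138946 and 139107 in MO-Tbx5a and 201571 and 167164 in MO-Ct, a log2 fold change of -0.40 (Benjamini-Hochberg adjusted p = 0.117 by limma). In both miRNAs the MO-Tbx5a libraries were nearly equal and below both MO-Ct libraries. miR-10d-5p made up 2.77% and 2.83% of the reads of miR-10a-5p, b, c and d-5p in MO-Tbx5a, against 3.62% and 4.38% in MO-Ct. The miR-196 family, also within the Hox clusters, did not share the direction, since 3 of its 4 members had a log2 fold change above 0 with the deposited size factors and 2 with library totals.

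miR-181c, of a family studied in mouse lymphocytes, had 786 and 897 normalized reads in MO-Tbx5a, against 1439 and 1341 in MO-Ct. Its log2 change was -0.73 (SE 0.18, Benjamini-Hochberg adjusted p = 0.00182 by limma). The family members miR-181a-5p and miR-181b had log2 fold changes of 0.10 and 0.11, and neither passed. Within the summed reads of miR-181a-5p, b and c, miR-181c took 1.67% and 1.89% in MO-Tbx5a, against 3.15% and 3.08% in MO-Ct. These shares differed little between batches and did not overlap between groups.

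miR-16c belongs to the miR-15 and miR-16 group, which restrains cell cycle genes in human cells, and was higher in MO-Tbx5a. It had 3797 and 3091 normalized reads in MO-Tbx5a, against 2223 and 2154 in MO-Ct, a log2 fold change of 0.65 (SE 0.16, Benjamini-Hochberg adjusted p = 0.00212 by limma). miR-16a and miR-16b overlapped between the groups, with log2 fold changes of 0.10 and 0.07. miR-16c therefore took a larger share of the 3 members, 56.4% and 55.2% in MO-Tbx5a against 45.4% and 46.5% in MO-Ct. Its genomic neighbour mir-15a-2 gives miR-15a-5p, which had 205 and 183 normalized reads in MO-Tbx5a and 153 and 145 in MO-Ct, a log2 fold change of 0.37 (Benjamini-Hochberg adjusted p = 0.423 by limma). miR-15a-5p has a second gene copy beside mir-16b, and reads cannot be assigned to either copy.

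miR-107a showed the same pattern inside its family. It lies within the span of pank1b, a pantothenate kinase gene, and had 402 and 348 normalized reads in MO-Tbx5a, against 241 and 235 in MO-Ct. The log2 change of 0.65 had an adjusted p of 0.0448 by limma with the Benjamini-Hochberg method. miR-103 and miR-107b had log2 fold changes of -0.03 and 0.16 and overlapped between the groups, and miR-107a took 38.3% and 32.6% of the reads of the 3 members in MO-Tbx5a, against 25.4% and 26.0% in MO-Ct.

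miR-92b, related to the miR-92a of the miR-17 to miR-92 polycistrons but made from a gene of its own, was the most abundant called miRNA. It had 28156 and 38944 normalized reads in MO-Tbx5a, against 49720 and 53765 in MO-Ct, a log2 fold change of -0.64 (SE 0.16, Benjamini-Hochberg adjusted p = 0.00182 by limma). Without MO-Tbx5a batch 1 the change was -0.41. Unlike the shares of miR-30a, miR-10d-5p, miR-181c, miR-16c and miR-107a, its share of the reads of miR-92a and b overlapped, at 16% and 22.5% in MO-Tbx5a and 22.4% and 26.9% in MO-Ct.

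**Figure D3:**
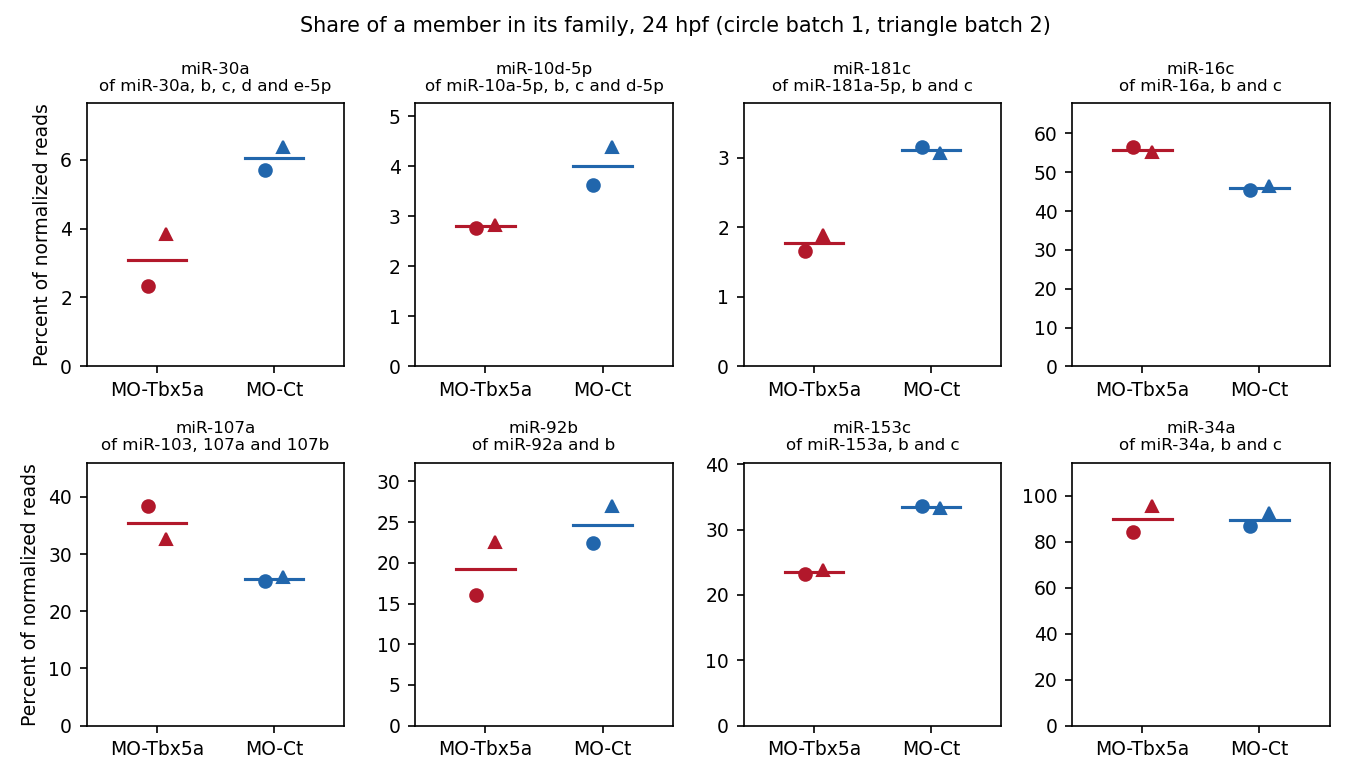
Percent of the normalized reads of a family taken by 1 member in each library at 24 hpf (vertical axes from 0), with MO-Tbx5a left of MO-Ct, circles for batch 1, triangles for batch 2 and lines at the group means. The groups are apart for miR-30a, miR-10d-5p, miR-181c, miR-16c, miR-107a and miR-153c and overlap for miR-92b and miR-34a.

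**Figure D4:**
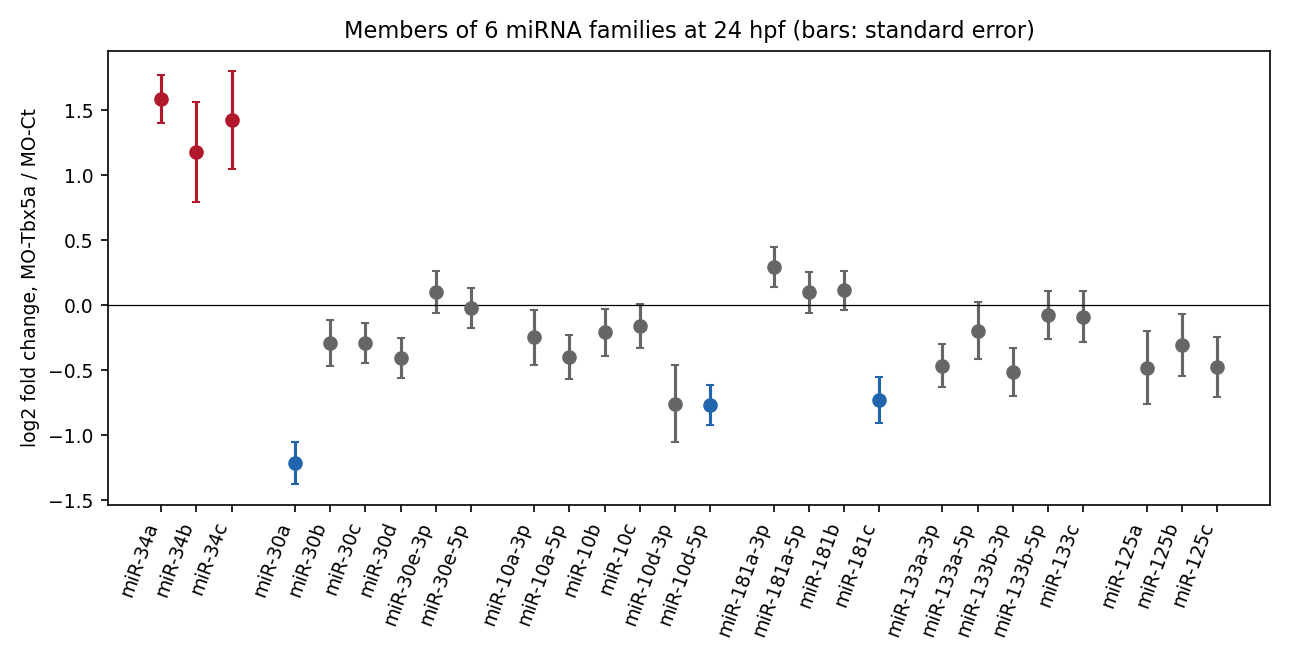
The log2 fold change of MO-Tbx5a over MO-Ct at 24 hpf for the tested members of 6 miRNA families, red for called higher, blue for called lower and grey for not called. Bars are 1 standard error, mostly from the spread pooled over miRNAs of like level. All 3 miR-34 members were called higher, but without MO-Tbx5a batch 1 the log2 fold changes of miR-34c and miR-34b were 0.53 and -0.08. The miR-30, miR-10 and miR-181 families each held a single called member.

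The 2 remaining calls that rose, miR-2191 and miR-733, were scarce. miR-2191 had 26.2 and 19.7 normalized reads (an estimated 14 and 22 reads) in MO-Tbx5a, against 5.32 and 4.59 (an estimated 4 and 5 reads) in MO-Ct, a log2 fold change of 1.83 (SE 0.56, Benjamini-Hochberg adjusted p = 0.0190 by limma). miR-733 had 35.6 and 33.1 normalized reads (an estimated 19 and 37 reads) in MO-Tbx5a, against 9.31 and 14.7 (an estimated 7 and 16 reads) in MO-Ct, a log2 fold change of 1.40 (SE 0.47, Benjamini-Hochberg adjusted p = 0.0394 by limma). The groups did not overlap for either miRNA.

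The remaining falls touched miRNAs of the pancreas and the eye. As background to all tissue results, fewer cells of a type and less RNA per cell cannot be told apart in whole embryos. miR-375, needed for pancreatic islets in zebrafish, had 473 and 475 normalized reads in MO-Tbx5a, against 874 and 691 in MO-Ct (log2 fold change -0.71, SE 0.19, Benjamini-Hochberg adjusted p = 0.00526 by limma). miR-216b, a miRNA of the exocrine pancreas, had 262 and 372 in MO-Tbx5a, against 520 and 535 in MO-Ct (log2 fold change -0.75, SE 0.21, Benjamini-Hochberg adjusted p = 0.00609 by limma). For both, every MO-Tbx5a library lay below every MO-Ct library. The neighbouring miR-217, of the same exocrine pancreas locus, was at 24.3 and 26.0 in MO-Tbx5a and 53.2 and 39.5 in MO-Ct, and its log2 fold change of -0.82 did not pass (Benjamini-Hochberg adjusted p = 0.204 by limma). The list of endoderm and pancreas did not move as a whole: 4 of its 8 tested members lay above 0 and 4 below (2 above and 6 below with library totals), and the gut and liver miRNA miR-192 had 6590 and 6604 normalized reads in MO-Tbx5a and 6682 and 6273 in MO-Ct.

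miR-204, which acts in the lens and the retinal pigment epithelium of fish, had 1699 and 2341 normalized reads in MO-Tbx5a, against 2679 and 3635 in MO-Ct. Its log2 change was -0.65 (SE 0.16, Benjamini-Hochberg adjusted p = 0.00256 by limma). The groups did not overlap, although batch 2 was above batch 1 in each, and without MO-Tbx5a batch 1 the change was -0.41. Among the 6 sensory organ miRNAs only miR-204 was called lower, beside 9 of all 210 miRNAs (4.29%). In this list 5 had a log2 fold change below 0, and the median was -0.35. The hair cell and photoreceptor cluster gave miR-182-5p at 14256 and 14214 in MO-Tbx5a and 19821 and 18184 in MO-Ct, and miR-183 at 2540 and 2337 in MO-Tbx5a and 3283 and 2810 in MO-Ct. Neither passed, with adjusted p of 0.0642 and 0.238 by limma with the Benjamini-Hochberg method. The groups were apart and lower for both, beside 62 of all 210 miRNAs (29.5%). miR-184 of the lens overlapped, with 8699 and 12682 in MO-Tbx5a and 12131 and 15589 in MO-Ct.

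In the muscle list 0 of 8 members were called, and 8 of 8 had a log2 fold change below 0 in each of the 3 scalings, with a median of -0.28 beside -0.01 over all 210 miRNAs. For 4 of them the MO-Tbx5a libraries lay below both MO-Ct libraries (3 with median-ratio size factors), beside 62 of all 210 (29.5%). The 8 include both arms of the miR-133a and miR-133b hairpins, so they are not 8 separate measurements. Without MO-Ct batch 2 the median was -0.12 and 1 member, miR-1, lay above 0, and 1 or 2 members lay above 0 without any other single library. miR-206, made in skeletal muscle, had 3010 and 2660 normalized reads in MO-Tbx5a and 3632 and 3938 in MO-Ct (log2 fold change -0.42, Benjamini-Hochberg adjusted p = 0.0707 by limma). miR-133a-3p, of skeletal and cardiac muscle, had 1716 and 1737 in MO-Tbx5a and 2190 and 2597 in MO-Ct (-0.47, Benjamini-Hochberg adjusted p = 0.0575 by limma). Both came close to the threshold without passing it. miR-1 and miR-499, which the heart also makes, were scarce and overlapped: miR-1 had 39.3 and 65.8 in MO-Tbx5a and 45.9 and 92.3 in MO-Ct, and miR-499 had 99.2 and 118 in MO-Tbx5a and 113 and 140 in MO-Ct.

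The nervous system list was similar, with 0 of 14 tested members called, 12 below 0 in each scaling and a median of -0.25. The groups were apart and lower for 8 members and higher for 1 (7 and 0 with library totals), beside 29.5% lower and 22.9% higher over all 210. Without MO-Ct batch 1 the median was -0.14 and 10 members lay below 0. miR-9-5p, of neural progenitors, had 1832 and 2300 normalized reads in MO-Tbx5a and 2678 and 2912 in MO-Ct, with a log2 fold change of -0.44 (Benjamini-Hochberg adjusted p = 0.0642 by limma). miR-124, of neurons, had 140 and 135 in MO-Tbx5a and 176 and 156 in MO-Ct, with -0.26 (Benjamini-Hochberg adjusted p = 0.613 by limma). Within the miR-153 family, which acts on synaptic vesicle release in zebrafish, the members parted. miR-153c took 23.3% and 23.8% of the reads of the 3 members in MO-Tbx5a, against 33.5% and 33.3% in MO-Ct, at a log2 fold change of -0.53 (Benjamini-Hochberg adjusted p = 0.0642 by limma), while miR-153b had 1192 and 1371 in MO-Tbx5a and 1149 and 1099 in MO-Ct.

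The 5 tested blood miRNAs were all scarce, between 17 and 95.5 normalized reads in any library, and 0 were called. All 5 had a log2 fold change below 0 (median -0.41). Leaving out MO-Tbx5a batch 1 gave a median of -0.64, and leaving out MO-Tbx5a batch 2 gave -0.24 with 1 member above 0. The most shifted was miR-142a-3p, a marker of white blood cells, at 26.2 and 18.8 in MO-Tbx5a and 57.2 and 31.2 in MO-Ct (-0.87, Benjamini-Hochberg adjusted p = 0.187 by limma). miR-144, of the red blood cell lineage, had 46.8 and 43.9 in MO-Tbx5a and 69.2 and 53.3 in MO-Ct. Both were apart and lower, beside 29.5% of all 210 miRNAs, and miR-451, the neighbour of miR-144, overlapped.

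Of the 7 miRNAs of cartilage, fin mesenchyme and smooth muscle, 0 were called, 5 lay below 0 with the deposited size factors and the median was -0.29 (-0.17 without MO-Tbx5a batch 1). The 3 miRNAs of the neighbouring hairpins mir-199-1 and mir-214, which are made together in mesenchyme, were each apart and lower with the deposited size factors. The share over all 210 miRNAs was 29.5%. Of the 2 arms of miR-199, 0 were apart with library totals and 1 with median-ratio size factors, while miR-214 was apart in each scaling. miR-214 had 112 and 117 normalized reads in MO-Tbx5a and 166 and 168 in MO-Ct, a log2 fold change of -0.53 (Benjamini-Hochberg adjusted p = 0.21 by limma). The cartilage miRNA went the other way on its 5p arm: miR-140-5p had 211 and 178 in MO-Tbx5a and 137 and 164 in MO-Ct (0.37, Benjamini-Hochberg adjusted p = 0.429 by limma), and miR-140-3p, the main arm, overlapped at 2360 and 2434 in MO-Tbx5a and 2484 and 2270 in MO-Ct.

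Epidermal and epithelial miRNAs lay mostly on the opposite side, with 0 of 10 called, 9 above 0 in each scaling and a median of 0.13. Without MO-Ct batch 2 the median was 0.02 with 7 above 0, without MO-Tbx5a batch 1 it was 0.07 with 6 above 0, and without MO-Tbx5a batch 2 and MO-Ct batch 1 it was 0.22 and 0.27. miR-203a, of differentiated epidermis, had 9187 and 9191 normalized reads in MO-Tbx5a and 8030 and 7472 in MO-Ct, a log2 fold change of 0.25 (Benjamini-Hochberg adjusted p = 0.419 by limma). The exception was miR-205, of the basal epidermis, with 23009 and 17459 in MO-Tbx5a and 29054 and 24514 in MO-Ct (-0.41, Benjamini-Hochberg adjusted p = 0.0678 by limma). These 2 skin miRNAs were each apart between the groups, in opposite directions, beside 22.9% higher and 29.5% lower over all 210.

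Of the 6 tested miRNAs of vascular endothelium 0 were called. With the deposited size factors 4 lay above 0 and 2 below, and the median was 0.14. miR-221 and miR-222a had log2 fold changes of -0.04 and -0.01. All 4 tested members of miR-126 lay above 0, with 0.24 for miR-126a-3p (Benjamini-Hochberg adjusted p = 0.488 by limma). That miRNA had 973 and 1061 normalized reads in MO-Tbx5a and 802 and 922 in MO-Ct. The groups were apart and higher for 2 of the 4 miR-126 members, beside 22.9% of all 210 miRNAs, and for 0 of them with library totals. miR-126a-5p and miR-126b-5p had almost the same values in every library, so the reads of these copies may be shared. Of the immune-linked list 0 of 6 were called and 4 were above 0. miR-21 had a log2 fold change of -0.07 (Benjamini-Hochberg adjusted p = 0.806 by limma), and miR-462, induced by interferon in fish, had 281 and 227 normalized reads in MO-Tbx5a and 194.1 and 219 in MO-Ct (0.29, Benjamini-Hochberg adjusted p = 0.523 by limma).

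**Figure D5:**
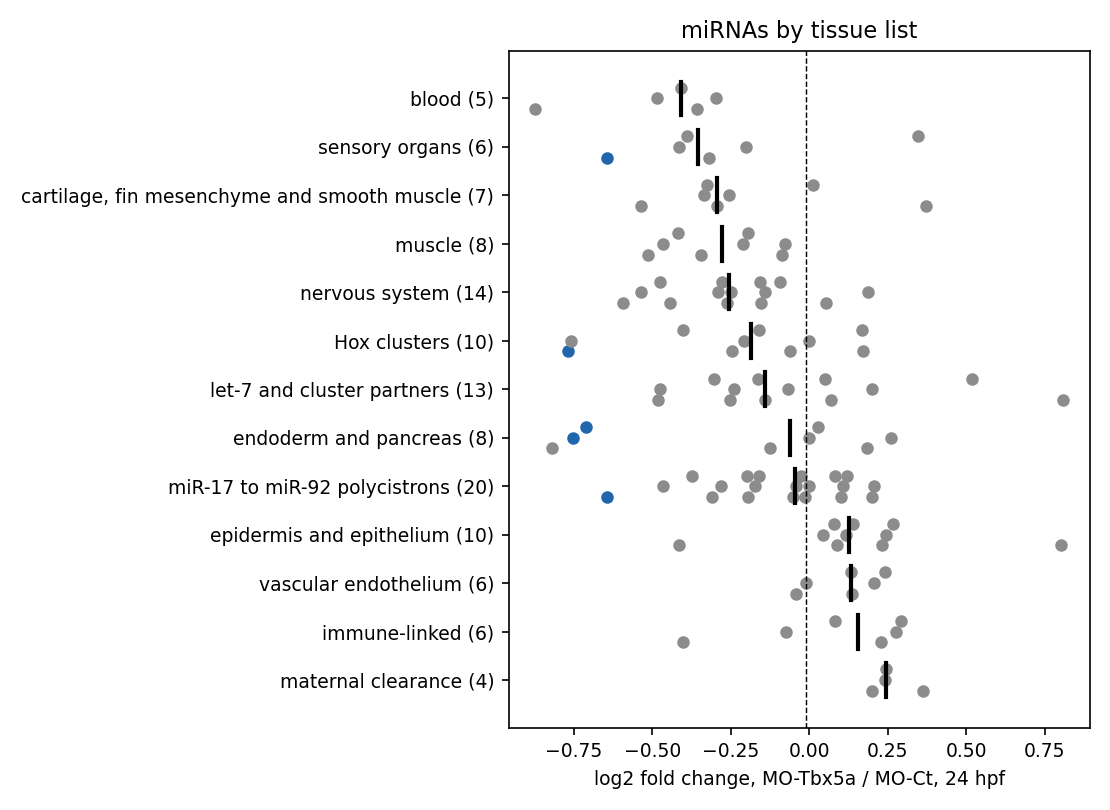
The log2 fold change of MO-Tbx5a over MO-Ct at 24 hpf for each tested miRNA (points) in 13 of the 14 lists, ordered by the list's median (black bars), with the number tested in parentheses, blue for called lower and a dashed line at the median over all 210 miRNAs. The muscle and blood lists lie wholly below 0 and the miR-430 list (maternal clearance) wholly above 0, and the list of miR-34 and miR-210 is not drawn.

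The 4 members of miR-430 all had a log2 fold change above 0, and 0 of 4 were called. The most abundant miRNA of the embryo, miR-430b, had 1331390 and 1090750 normalized reads in MO-Tbx5a and 1146250 and 906023 in MO-Ct. Its groups overlapped, and the log2 fold change was 0.24 (Benjamini-Hochberg adjusted p = 0.55 by limma). With library totals or median-ratio size factors, 2 of the 4 were apart and higher, beside 43 and 58 of all 210 miRNAs. The median log2 fold change of the 4 was 0.24 with all libraries. Without MO-Ct batch 2 it was 0.02, with 2 members above 0 and 2 below, and without MO-Ct batch 1 it was 0.56.

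Among let-7, which marks developmental time, and the miRNAs read from the same clusters, 0 of 13 tested were called. The 3 tested members of the miR-125 family were each apart and lower in each scaling, beside 29.5% of all 210 miRNAs with the deposited size factors. miR-125c had 198 and 209 normalized reads in MO-Tbx5a and 254 and 316 in MO-Ct, with a log2 fold change of -0.47 (Benjamini-Hochberg adjusted p = 0.205 by limma). let-7j was at 76.7 and 54.6 in MO-Tbx5a and 34.6 and 37.7 in MO-Ct, with 0.81 (Benjamini-Hochberg adjusted p = 0.136 by limma), the opposite direction to miR-125. let-7 copies differ by few bases, and reads may be split among them.

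The miR-17 to miR-92 polycistrons promote proliferation in mammals. Of their 20 miRNAs 1 was called lower and 0 higher, beside 4.29% and 3.33% of all 210. The call was miR-92b, listed with them by name only. The next largest shift was that of miR-18c, with 1115 and 1180 normalized reads in MO-Tbx5a and 1668 and 1506 in MO-Ct (-0.46, Benjamini-Hochberg adjusted p = 0.0643 by limma). miR-19a-3p had 3286 and 2979 in MO-Tbx5a and 2932 and 2530 in MO-Ct (0.20, Benjamini-Hochberg adjusted p = 0.523 by limma). Its groups were narrowly apart. The other arm of the hairpin, miR-19a-5p, had a log2 fold change of -0.31 at 73.0 and 82.4 in MO-Tbx5a and 109 and 85.5 in MO-Ct.

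Both arms were tested for 24 hairpins, and in 18 of them the arms had log2 fold changes of the same sign. The absolute difference between arms had a median of 0.19 and was over 0.5 for 2 hairpins, miR-182 and miR-19a. The minor arm miR-182-3p, at 24.3 and 15.2 normalized reads in MO-Tbx5a and 10.6 and 20.2 in MO-Ct, overlapped between the groups. In miR-133b the arms shifted unequally, and miR-133b-5p took 56.6% and 53.1% of the reads of the hairpin in MO-Tbx5a, against 49.0% and 45.5% in MO-Ct.

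Precursors were also grouped with neighbours no more than 10000 bp apart in the RefSeq annotation, in which 253 of 255 precursors of the table were found by name. With the deposited size factors, in 33 of the 41 groups with at least 2 tested miRNAs all of them had a log2 fold change of the same sign, below 0 in 16 groups and above 0 in 17. Examples besides those above are mir-454a, mir-301a and mir-130a, with log2 fold changes of 0.19 to 0.28 and none called, and mir-100-1, let-7a-2 and mir-125b-1, with -0.30 to -0.16 and none called. Copies of a mature miRNA share its reads among such groups, so the groups are not separate measurements. Over all 210 miRNAs 104 had a log2 fold change above 0 and 106 below. The count was not set against groups of miRNAs that are not neighbours, so whether neighbours changed together was not tested.

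At 48 hpf each morpholino had 1 library, so no difference at that stage has a replicate of its own, and none was tested. Which of the libraries received MO-Tbx5a could not be checked in the data. The sign of each log2 ratio at 48 hpf rests on the labels alone and would turn with exchanged labels. The paper lists miR-34a and miR-30a as higher and miR-181c as lower in MO-Tbx5a at the later stage. The labelled libraries give the opposite direction for each of these miRNAs, and not for these alone. The paper also lists miR-430c, miR-203a and miR-206 as higher, and their labelled log2 ratios were -2.10, -0.92 and -0.87. It lists miR-9-5p, miR-125a and miR-182-5p as lower, and their labelled log2 ratios were 2.02, 2.16 and 1.24. The reason was not tested. As labelled, the log2 ratio of MO-Tbx5a over MO-Ct was -1.17 for miR-30a, -0.68 for miR-92b, 0.11 for miR-10d-5p, 0.53 for miR-210-3p and 0.10 for the other arm of miR-210. Of the 16 called miRNAs, 6 had the sign they had at 24 hpf and 10 the opposite sign, and with exchanged labels these counts would change places.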

How the data were processed

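Small RNA libraries were sequenced from pools of 50 embryos (wild-type AB strain, 1.5 ng of morpholino), 2 per group at 24 hpf and 1 per group at 48 hpf, and were grouped by the sample labels. The authors mapped adapter-trimmed reads to zebrafish precursors and divided the reads of each library by a DESeq size factor, so the deposited values are a normalized signal per pair of precursor and mature miRNA and not raw counts. The submitters' processing notes also name CASAVA 1.8. Values above 0 at 24 hpf were whole multiples of 1 step per library within 0.0055 normalized reads, and the step was taken as 1 read to estimate reads and size factors, from 0.534 to 1.12. Library totals depend on the most abundant miRNAs, and mapping to precursors leaves reads of similar copies shared among them.

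The 286 rows of the table were averaged to 230 mature miRNAs. Of the 37 made from more than 1 precursor, 33 agreed to within 10% at 24 hpf. For 210 miRNAs the log2 of the value plus 2 entered a linear model in limma 3.58.1 (R 4.3.3), with a trend of variance on level and without a replicate term. All fold changes are on this scale, which understates those of scarce miRNAs. The model was first run on simulated reads with the same added log2 noise for every miRNA. Such reads cannot show how the model performs where the spread between batches differs from miRNA to miRNA. Calls are two-sided at 0.05 after the Benjamini-Hochberg adjustment. Count models were not used because the values are normalized. Groups were called apart when both libraries of one lay on the same side of both of the other. Shares within a family were computed from normalized reads. The other steps used Python 3.11.15, numpy 2.4.6 and pandas 2.3.3.

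The members and lists were chosen with earlier results of these data known. Named miRNAs are those called, the most abundant and the most shifted of each list and of each family with at least 3 tested members, those the study followed up, and their other arms and family members. Another 15 list or family members were named for their known roles after their values were seen. Families follow miRNA names instead of seeds, since no sequence table was used here. Lists and families count each arm of a hairpin as a member, so their members are not all separate measurements. The neighbours came from the RefSeq gene table of GRCz12tu, for names and distances only. Alternatives were library totals, median-ratio size factors, other filters and pseudocounts, no variance trend, a replicate block, 1 fit of all 6 libraries, the highest value over precursors, each library left out, and, chosen after seeing the data, voom weights on the estimated reads.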

Additional observations from a re-analysis of the deposited data

Results flagged for a closer look

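As labelled, 10 of the 16 called miRNAs had opposite signs at 24 and 48 hpf, and 2 of these differed by at least 2-fold at 48 hpf. Each group had 1 library at 48 hpf, and whether the stages differ was not tested. The signs at 48 hpf rest on labels that the data cannot check, and with exchanged labels neither of the 2 would differ in direction between the stages. The paper lists miR-34a as higher and miR-181c as lower in MO-Tbx5a at both stages. The labelled libraries of the later stage run opposite to the paper for both miRNAs and for the others compared above. No reversal between the stages is therefore concluded. miR-34a had a log2 fold change of 1.59 at 24 hpf, and its log2 ratio at 48 hpf was -2.66 (83.7 normalized reads as labelled for MO-Tbx5a, 541 for MO-Ct). miR-181c had a log2 fold change of -0.73 at 24 hpf and a log2 ratio of 1.38 at 48 hpf. The other members of its family had log2 ratios of 1.62 (miR-181a-5p) and 1.37 (miR-181b) at 48 hpf, and log2 fold changes of 0.10 and 0.11 at 24 hpf. No group had enough libraries for a check of single libraries that stand apart.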

How the results depend on the processing

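In place of 16 calls, median-ratio size factors gave 6 (2 higher, 4 lower, all among the 16), library totals 0, no variance trend 1 and the replicate block 39 (12 higher, 27 lower, the 16 included). The equal replicate numbers are only numbers in the labels: the batch differences of the groups had a correlation of 0.28 across 210 miRNAs, with 2 pairs. Other filters, pseudocounts, 1 fit of all 6 libraries and the highest value over precursors gave 12 to 16, and voom 12 (3 higher, 9 lower, all among the 16). With 1 library left out the count lay between 0 and 16. The cause of these differences was not tested. The share of higher calls was 43.8%, against 33.3% with median-ratio size factors, 30.8% with the block, and 25% with voom or at least 10 in every library.

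The log2 changes of 23 of the named miRNAs turned sign under some setting, and of these miR-34b was called. Library totals gave -0.025 for miR-140-3p, -0.011 for miR-192 and -0.036 for miR-130b, and median-ratio size factors 0.0047 for miR-222a. With each library left out, the lowest and highest values had opposite signs for miR-34b (-0.0781 to 2.43), miR-142a-5p (-1.12 to 0.15), miR-107b (-0.15 to 0.47), miR-30e-3p (-0.15 to 0.35), miR-19b-5p (-0.13 to 0.30), miR-128 (-0.289 to 0.0103), miR-16a (-0.025 to 0.23), miR-16b (-0.0379 to 0.175), miR-15b (-0.184 to 0.082), miR-19b-3p (-0.0073 to 0.22), miR-19c (-0.138 to 0.0834), miR-19d (-0.22 to 0.12), miR-21 (-0.198 to 0.0535), miR-222a (-0.105 to 0.084), miR-20a-5p (-0.125 to 0.0391), miR-30e-5p (-0.101 to 0.0593), miR-130b (-0.0722 to 0.0769), miR-140-3p (-0.0517 to 0.0779), miR-192 (-0.0185 to 0.0726), miR-1 (-0.83 to 0.14), miR-103 (-0.0825 to 0.0131), miR-133b-5p (-0.23 to 0.0738) and miR-182-3p (-0.0604 to 0.75). Of 210 list medians over these settings, 201 moved by no more than the spread between batches and 9 by more. The variance trend, the replicate block and the fit of all 6 libraries cannot change a log2 fold change, so those medians could not move. Leaving out 1 library could rarely move a median beyond that spread, which came from the same libraries. The count is therefore no measure of how stable the medians were.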
